A study of Mus musculus with 8 samples.

Results

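Trp53bp1 encodes 53BP1, a large protein that gathers on chromatin next to DNA breaks, and the arrays of this series read its RNA with 6 probe sets that did not move together between the genotypes. The 6 are all probe sets of the deposited table that the platform annotation assigns to Trp53bp1 alone, out of 45101 probe sets in all, and none lists Trp53bp1 together with another gene. The gene was selected on these measured values, since its probe sets were seen to disagree between the genotypes, so the signals and genotype differences of the 6 are a description and carry no test. RNA of mouse telencephalon from Dlx1/2 mutant animals was measured in 4 groups of 2 arrays each, given as BG -/- and BG +/- for basal ganglia and as Ctx -/- and Ctx +/- for cortex. Dlx1 and Dlx2 are neighbouring homeobox genes on chromosome 2, which also carries Trp53bp1. The +/- animals carry a mutant allele themselves, no wild-type group was analysed here, and the labels give neither age nor strain, nor say whether animals were pooled or whether each array had its own animal. P-values given for other genes may thus reflect technical spread alone.

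53BP1 binds modified histones through its Tudor domains, and its BRCT repeats bind p53, after which it is named. At a broken chromosome it holds back the trimming of the DNA ends and so favours end joining over recombination with a sister copy. Kinases such as ATM phosphorylate it, and RIF1, PTIP and the shieldin complex act downstream of it. Progenitors of the embryonic brain divide quickly and depend on such repair.

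The targeted gene Dlx1 was low in every array labelled -/-. It gave signals of 3.67 and 15.5 in the BG -/- arrays and 1232 and 1237 in the BG +/- arrays. In cortex it gave 2.42 and 1.74 in Ctx -/- and 138 and 137 in Ctx +/-, and whether its probes lie within the deleted sequence is not known here. Source labels and titles name blood and adrenal medulla, yet the titles also carry the region codes and the descriptions give the brain regions. The cortical gene Neurod6 averaged at least 4528 in each Ctx group and at most 809 in each BG group, and the striatal gene Isl1 at least 1399 in each BG group and at most 14.0 in each Ctx group. Emx1 and Tbr1 of cortex also averaged higher in both Ctx groups, and Gsx2 and Ebf1 of basal ganglia in both BG groups. Tbr1 averaged 500 in Ctx -/- and 594 in Ctx +/-, against 243 in BG -/- and 211 in BG +/-. The basal ganglia marker Nkx2-1 was dim, and its +/- arrays overlapped, at 10.1 and 36.7 in BG +/- and 26.5 and 2.79 in Ctx +/-. Of 5 red cell markers 3 had a single-gene probe set. The embryonic globin gene Hbb-y averaged 2851 in BG -/- where BG +/- had 5648, and 1323 in Ctx -/- where Ctx +/- had 1866. Alas2, the heme synthesis gene of red cells, averaged 144 in BG -/- where BG +/- had 176, and 62.2 in Ctx -/- where Ctx +/- had 91.5, while Hba-a1 averaged 14.7 or less in every group. Of 4 adrenal medulla markers, the catecholamine enzyme genes Th, Dbh and Pnmt averaged at most 38.9, 77.1 and 92.2 in any group, and Chga, a gene of secretory granules that neurons also express, 187 to 252 in every group. The part of red cells or adrenal cells in the Trp53bp1 signals was not tested.

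The 6 probe sets fall into groups by the sequence record they were annotated to. Probe sets 1442316_x_at and 1457812_at share the record BB119893, and 1426956_a_at and 1426957_at share AJ414734. Probe set 1435609_at is annotated to BB304905, and for 1446100_at the annotation gives no record. Probe sets of 1 record can overlap in sequence, so the members of a pair are not independent readings. In this platform's names, _x marks a probe set whose probes may also match other sequences and _a one shared by transcripts of the same gene. The probes themselves, the exons they match and the strand they read were not analysed here. What can be shown of the gene is the stretch before its RefSeq start, 250 bases on the minus strand of GRCm38.p6 at chr2:121271408-121271657. It is shown because it was searched for TAATTA, a sequence that DLX proteins bind. Capitals mark GGGCGG, the GC box.
Trp53bp1: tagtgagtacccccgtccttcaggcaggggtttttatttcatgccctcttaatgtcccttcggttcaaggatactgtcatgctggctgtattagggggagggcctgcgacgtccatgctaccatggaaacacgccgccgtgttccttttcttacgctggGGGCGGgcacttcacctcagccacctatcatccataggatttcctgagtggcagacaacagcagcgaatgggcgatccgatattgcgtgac
Of 4 motifs searched on both strands, GGGCGG had 1 match, and 32.7% of 32851 such windows of the RefSeq table hold it. TAATTA, a sequence that DLX proteins and other homeodomains bind, had 0 matches, against 4.84% of windows with at least 1. The shorter TAAT, which this window does hold, was not among the 4 motifs. CCAAT and TATAAA also had 0 matches, and 33.8% and 12.4% of windows hold them. No match says only that these letters are not in this window.

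Both probe sets of record BB119893 were far lower in -/- tissue of either region. Probe set 1457812_at gave signals of 1.27 and 1.31 in BG -/- and 71.3 and 72.7 in BG +/-. In cortex it gave 7.94 and 1.61 in Ctx -/- and 141 and 138 in Ctx +/-. The -/- arrays thus lay close to the bottom of the scale, where at least 24.6% of the signals of every array were below 16. Probe set 1442316_x_at gave 20.8 and 13.0 in BG -/- and 123 and 122 in BG +/-. In cortex it gave 15.5 and 12.8 in Ctx -/- and 139 and 145 in Ctx +/-. All 4 arrays of -/- tissue were below all 4 of +/- tissue for both probe sets.

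On the scale used for every change here, log2(signal + 16), 1457812_at differed by -2.35 ± 0.16 (SE, n = 2 arrays a group) in BG and by -2.92 ± 0.16 in Ctx. For 1442316_x_at the differences were -2.08 ± 0.15 in BG and -2.39 ± 0.15 in Ctx. The added 16 understates changes of dim probe sets. As plain mean signals, 1.79% of the BG +/- level of 1457812_at was left in BG -/- and 3.42% of the Ctx +/- level in Ctx -/-. For 1442316_x_at the shares were 13.8% in BG -/- and 9.98% in Ctx -/-. In tissue RNA, fewer cells of a type and less RNA per cell cannot be told apart.

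The other 4 probe sets showed no such step. The first of them, 1426956_a_at, gave 1728 and 1772 in BG -/- and 1739 and 1803 in BG +/-, and the genotypes overlapped. In cortex it gave 1860.2 and 1663 in Ctx -/- and 1286 and 1599 in Ctx +/-, with both -/- arrays higher. Its change was -0.02 ± 0.14 in BG and 0.29 ± 0.14 in Ctx. Its partner on the same record, 1426957_at, gave 688 and 668 in BG -/- and 858 and 752 in BG +/-. In cortex it gave 745 and 768 in Ctx -/- and 961 and 792 in Ctx +/-. Both -/- arrays were the lower ones in each region, by a small margin: the changes were -0.24 ± 0.14 in BG and -0.20 ± 0.14 in Ctx. This pair, unlike the BB119893 pair, therefore had values of opposite sign in Ctx.

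Probe set 1435609_at gave 318 and 339 in BG -/- and 284 and 223 in BG +/-, and 305 and 281 in Ctx -/- and 281 and 268 in Ctx +/-. The -/- arrays were the higher ones in BG, and in Ctx by less than 1 signal unit at the closest. The changes were 0.36 ± 0.15 in BG and 0.09 ± 0.15 in Ctx. The dim probe set 1446100_at gave 42.8 and 62.1 in BG -/- and 32.0 and 10.2 in BG +/-. In cortex it gave 27.8 and 32.2 in Ctx -/- and 41.1 and 19.8 in Ctx +/-. The genotypes overlapped in Ctx and not in BG, and the changes were 0.93 ± 0.34 in BG and 0.02 ± 0.34 in Ctx, with errors over 2 times those of any other member. In each region, 5 of the 6 probe sets had arrays that did not overlap between the genotypes, 3 lower and 2 higher in -/-. Of all 31526 probe sets kept, 60% had no overlap in BG (31.3% higher and 28.6% lower in -/-), and 39.4% had none in Ctx (18.6% higher and 20.9% lower). All 6 members were kept by the filter on low values, which left out the lowest 30% of probe sets.

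**Figure D1:**
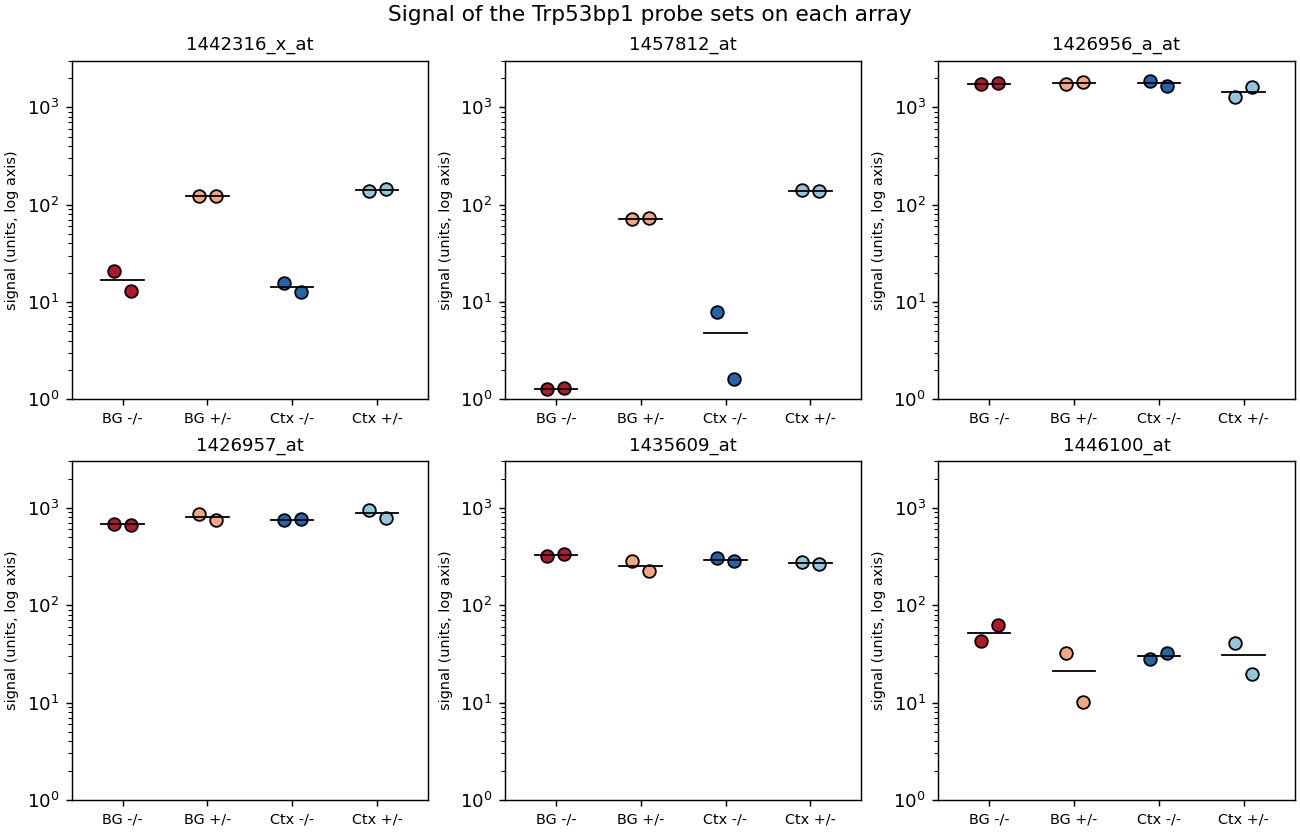
Signal of each Trp53bp1 probe set on a log axis, 1 point per array and a bar at the mean of the 2 arrays of a group. The BB119893 probe sets, in the first 2 panels, lie between 1.27 and 20.8 in -/- tissue and between 71.3 and 145 in +/- tissue, while the other 4 probe sets show no such step.

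Set against each other, the probe sets split into the same 2 and 4 in both regions. There are 15 pairs per region, and for each the change of 1 probe set minus that of the other was taken within arrays, which cancels a shift of all log2 values of an array. In the 8 pairs of a BB119893 probe set with another one, the changes differed by 1.84 to 3.28 in BG and by 2.19 to 3.21 in Ctx. In the 6 pairs among the other 4 they differed by 0.22 to 1.17 in BG and by 0.07 to 0.49 in Ctx. The BB119893 probe sets differed from each other by 0.27 ± 0.17 (SE from the 4 arrays) in BG and 0.53 ± 0.16 in Ctx.

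**Figure D2:**
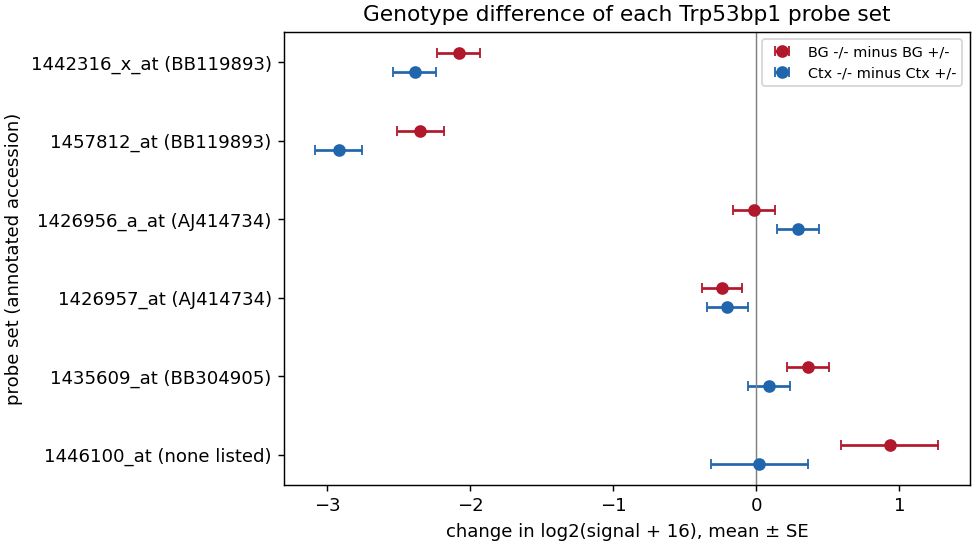
Change in log2(signal + 16), -/- minus +/-, for each Trp53bp1 probe set with its annotated record, with SE bars from the fit over 8 arrays. The BB119893 probe sets lie at -2.08 or below in both regions, and the other 4 lie between -0.24 and 0.93.

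What the gene as a whole appears to do therefore depends on the probe set taken. Its brightest probe set gives changes of -0.02 in BG and 0.29 in Ctx. The mean of all 6 gives -0.56 in BG and -0.85 in Ctx, and their median -0.13 and -0.09. The mean of the 4 others gives 0.26 in BG and 0.05 in Ctx.

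The regions differed little by comparison. Probe set 1457812_at was lower in BG +/- than in Ctx +/-, at 71.3 and 72.7 against 141 and 138, a difference of -0.82 ± 0.16. From high to low its groups ran Ctx +/-, BG +/-, Ctx -/- and BG -/-. The means of the last 2 in that order, 4.77 in Ctx -/- and 1.29 in BG -/-, differed by less than the SD of 4.47 between the Ctx -/- arrays. For 1442316_x_at, BG minus Ctx was -0.19 ± 0.15 in +/- tissue and 0.12 ± 0.15 in -/- tissue, where the arrays overlapped. For the remaining 4 probe sets BG minus Ctx lay between -0.35 and 0.30 in +/- tissue and between -0.15 and 0.56 in -/- tissue. Taken as BG minus Ctx, the genotype changes themselves differed by 0.57 ± 0.23 for 1457812_at and by 0.31 ± 0.21 for 1442316_x_at. For 1457812_at this difference turned with the added constant: with log2(signal + 1) its change was -4.99 in BG and -4.86 in Ctx.

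Among genes with as many probe sets, none had a spread as wide as that of Trp53bp1. The spread is the highest minus the lowest log2 change among a gene's probe sets. It was 3.28 in BG, where 1446100_at and 1457812_at were the extremes, and 3.21 in Ctx, where 1426956_a_at and 1457812_at were. Over the 244 genes with 6 single-gene probe sets the median spread was 0.78 in BG and 0.62 in Ctx. After Trp53bp1 came Edil3 at 1.91, Oaz3 at 1.81 and Per3 at 1.75 in BG. Over all 9010 genes with 2 or more single-gene probe sets Trp53bp1 ranked at 3 in BG and at 1 in Ctx. In BG Mid1 at 3.45 and Slc32a1 at 3.45 were wider, and the Y-linked gene Eif2s3y came next at 3.12. In Ctx the Y-linked genes Eif2s3y at 2.94 and Kdm5d at 2.72 came next, then Sulf1 at 2.54. These ranks describe how the gene was chosen. With 1446100_at set aside, an alternative chosen after seeing the data, the spread was 2.71 in BG and 3.21 in Ctx.

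**Figure D3:**
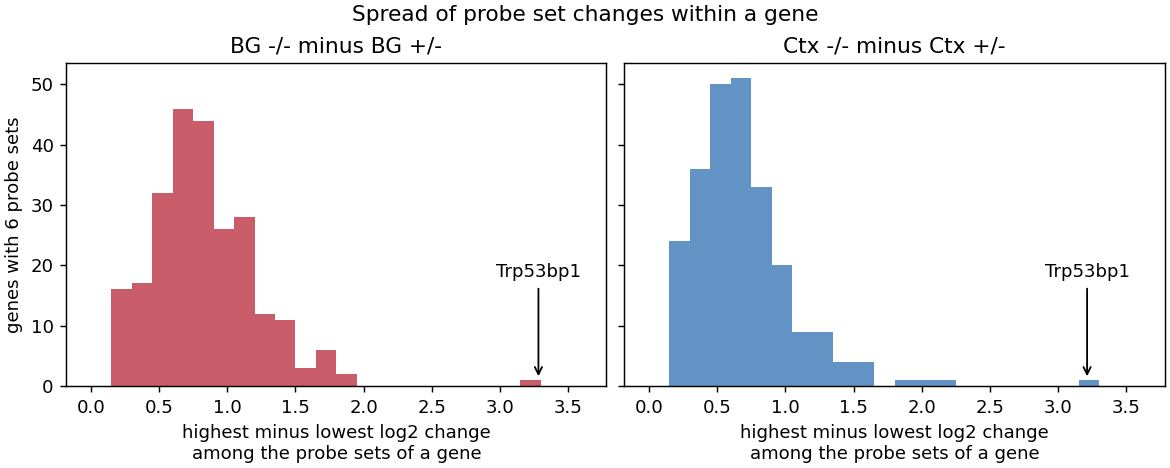
Number of genes by the spread of their probe set changes, for the 244 genes with 6 single-gene probe sets, in BG and in Ctx. The arrows mark Trp53bp1 at 3.28 and 3.21, with the next gene at 1.91 in BG and 2.21 in Ctx.

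A drop of this kind beside an almost level probe set was rare among the probe sets kept, by limits chosen after the values were seen. Level probe sets that the filter left out did not count. Of 6710 genes with 2 or more probe sets kept, 4 had 1 probe set lower by over 1 and another within 0.5 of no change, in both regions. They were Trp53bp1, Bub1b, Slc32a1 and Maf. Trp53bp1, the mitotic checkpoint kinase gene Bub1b and the vesicular GABA transporter gene Slc32a1 lie on chromosome 2. Of 6703 genes with 2 or more probe sets kept and a known chromosome, 8.4% lie there. With 4 genes found by limits chosen after the values were seen, their chromosomes were not tested against that share. By a fit over all probe sets, Bub1b changed by -1.49 ± 0.43 in BG and -1.51 ± 0.43 in Ctx on probe set 1447362_at, and by -0.33 ± 0.18 and -0.06 ± 0.18 on 1447363_s_at. The level probe set was dim in the other 2 genes, at 21.3 to 59.2 over the arrays in Slc32a1 and at 4.55 to 38.1 in Maf, and at 184 to 314 in Bub1b.

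Among the genes closest in pattern to the BB119893 pair were several of the Y chromosome. Closeness was the root mean square difference over the 8 arrays between log2 values, each centred on its own mean, and it describes this pattern without a test. Each gene is given by its nearest probe set. Closest to 1457812_at was Kdm5d, a histone demethylase gene on Y, at 0.25. Next came Uty, also a gene on Y, at 0.30. Nxph2, a neurexophilin gene on chromosome 2, followed at 0.49, Eif2s3y, a translation factor gene on Y, at 0.73 and Cmtm8 at 0.74. The BB119893 probe sets were at 0.35 from each other. Closer than this to 1457812_at were 4 single-gene probe sets of other genes, all of the Y-linked genes Kdm5d and Uty. Closer than this to 1442316_x_at were 5, of Kdm5d, Uty and Nxph2. Closest to 1442316_x_at were Kdm5d at 0.29, Uty at 0.29, Nxph2 at 0.31, Cmtm8 at 0.55 and the transcription factor Maf at 0.57. The nearest Uty probe set to 1457812_at gave 1.11 and 3.27 in BG -/- and 64.3 and 105 in BG +/-, and 0.974 and 6.03 in Ctx -/- and 130.4 and 103 in Ctx +/-. Its changes, like those of Kdm5d, were close to those of 1457812_at: -2.44 in BG and -2.77 in Ctx for Uty, and -2.46 in BG and -2.92 in Ctx for Kdm5d.

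**Figure D4:**
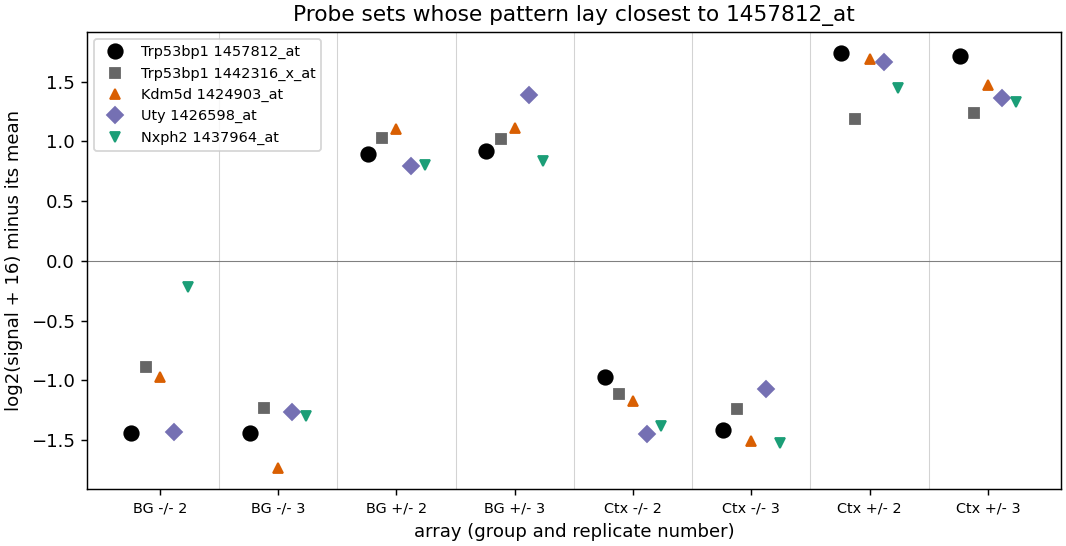
Log2(signal + 16) minus its mean over the 8 arrays for 1457812_at, for 1442316_x_at and for the 3 genes closest to 1457812_at, by array. In all 5 probe sets the 4 arrays of -/- tissue lie below the mean and the 4 of +/- tissue above it.

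Every -/- array thus carried low Y-linked signals and every +/- array high ones. Eif2s3y averaged 3.06 in BG -/- where BG +/- had 251, and 5.21 in Ctx -/- where Ctx +/- had 395. Xist, the transcript of the inactive X chromosome, ran the other way, with 2429.6 in BG -/- where BG +/- had 38.3, and 2409.9 in Ctx -/- where Ctx +/- had 65.1. Sex-linked signal and genotype cannot be told apart in these arrays. Ranked by the smaller of their 2 falls, 1457812_at stood at 8 and 1442316_x_at at 10 of 31526 probe sets. Above or between them stood probe sets of Eif2s3y, Uty, Kdm5d, Dlx1 and Dlx5 and 2 with no gene symbol.

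Genes on either side of Trp53bp1 showed no comparable fall. The 5 nearest genes with a probe set kept on each side, in the order of the RefSeq table, were Ccndbp1, Lcmt2, Adal, Zscan29 and Tubgcp4 on one side and Map1a, Ppip5k1, Ckmt1, Catsper2 and Pdia3 on the other. Each is represented by its brightest single-gene probe set. In BG, 1 rose, 1 fell and 8 did not pass, and 7.82% of all 13627 genes passed (limma with Benjamini-Hochberg, threshold 0.05). In Ctx 1 of the 10 had an unadjusted p under 0.05 (limma), a limit at which all genes were not counted. None of the 10 passed there (limma), and 0.205% of all genes passed. Their median change was 0.02 in BG and 0.02 in Ctx, beside -0.08 and -0.03 over all genes.

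The neighbour that rose was the zinc finger gene Zscan29, with signals of 104 and 121 in BG -/- and 64.2 and 72.3 in BG +/-. Its change was 0.61 ± 0.14 in BG (limma adjusted p = 0.0402). In Ctx it gave 158 and 179 in Ctx -/- and 75.6 and 84.2 in Ctx +/-, a change of 0.94 ± 0.14 that did not pass (limma adjusted p = 0.085). Ckmt1, a mitochondrial creatine kinase gene, fell in BG, with 66.3 and 75.1 in BG -/- and 118 and 121 in BG +/- (-0.64 ± 0.12, limma adjusted p = 0.0267). On its other probe set it was at -0.42 ± 0.18 in BG and did not pass (limma adjusted p = 0.196). Of the 10 neighbours 7 had 2 or more single-gene probe sets, and the widest spread among these was 1.002 in BG, for Catsper2, and 0.76 in Ctx, for the microtubule gene Map1a. The count of neighbours that passed in BG was 0 without any 1 of the 4 BG arrays or of the Ctx -/- arrays, and without them between 0.191% and 3.28% of all genes passed.

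Of the 41 genes of the 53BP1 pathway listed, 35 could be tested. In BG 3 rose, 1 fell and 31 did not pass. The share past this adjusted threshold over all genes was 4.76% for rises and 3.05% for falls. Of the 35, 15 had an unadjusted p under 0.05 (limma). All genes were not counted at that limit, so the 15 cannot be weighed. The checkpoint kinase gene Atr had signals of 199 and 227 in BG -/- and 60.8 and 56.3 in BG +/-. Its change was 1.62 ± 0.16 (limma adjusted p = 0.00586), and its other 2 probe sets also rose. Atm, whose kinase phosphorylates 53BP1, had 236 and 241 in BG -/- and 112 and 97.5 in BG +/-. Its change was 1.08 ± 0.19 (limma adjusted p = 0.0212), and on its other probe set it was 0.56 ± 0.20 and did not pass (limma adjusted p = 0.122).

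Rif1, the effector that 53BP1 brings to breaks, had 520.2 and 523 in BG -/- and 301 and 287 in BG +/-. It rose by 0.79 ± 0.12 (limma adjusted p = 0.0129), and of its other 3 probe sets 1 passed, also higher. Nudt16l1, which encodes the 53BP1-binding protein TIRR, had 484 and 484 in BG -/- and 754 and 687 in BG +/-. It changed by -0.56 ± 0.12 (limma adjusted p = 0.0339), and by -0.33 ± 0.13 on its other probe set, which did not pass. Without either Ctx -/- array, or with no filter on low values, no pathway gene passed as lower in BG. By role, 1 of 14 genes of recruitment to breaks rose and 1 fell, 1 of 8 effectors and 1 of 3 checkpoint kinases rose, and none of 6 end joining or 4 recombination genes passed. Those last 10 genes included Prkdc at 0.53 ± 0.15 and Brca1 at 0.60 ± 0.16 (limma adjusted p = 0.0745 and 0.0668). The median over the list was -0.05, beside -0.08 over all genes.

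In Ctx 4 of the 35 had an unadjusted p under 0.05 (limma), a limit at which all genes were not counted. None of the 35 passed there (limma), beside 0.205% of all genes, and the changes ran from -0.49 to 0.36. Rif1 was at 0.00 ± 0.12 there and Atr at 0.08 ± 0.16. The difference of the effects, BG minus Ctx, was 1.53 ± 0.23 for Atr and 0.79 ± 0.16 for Rif1, and neither passed (limma adjusted p = 0.0542 and 0.0873). The 4 Ctx genes with the smallest p were Kdm4a, Chek1, Kmt5a and Palb2, at adjusted p of 0.388 or more (limma). The count in BG was 0 without either BG -/- array and 1 without either BG +/- array, where the share of all genes that passed was itself between 0.191% and 1.13%, beside 7.82% with all arrays.

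Of 23 genes of p53 and its targets 18 could be tested. In BG 1 rose, 3 fell and 14 did not pass, beside 4.76% of all genes that rose and 3.05% that fell. In Ctx none passed (limma), and 0.205% of all genes passed. None had an unadjusted p under 0.05 there (limma), a limit at which all genes were not counted. Trp53inp1, a p53-induced gene of cell death and autophagy, rose by 0.94 ± 0.17, with 705 and 697 in BG -/- and 304 and 422 in BG +/- (limma adjusted p = 0.0234). Its other probe set, at 0.22 ± 0.25, did not pass. The cell death gene Bbc3 fell by 0.76 (SE 0.17), the kinase gene Plk2 by 0.67 (SE 0.14) and Ei24 by 0.66 (SE 0.13), with limma adjusted p of 0.0405, 0.0331 and 0.0283. Cdkn1a, the cell cycle inhibitor most used as a readout of p53, was at -0.10 ± 0.18 in BG and -0.23 ± 0.18 in Ctx. Mdm4 and Mdm2, which restrain p53, were at 0.64 ± 0.16 and 0.63 ± 0.19 in BG and did not pass (limma adjusted p = 0.0512 and 0.0899). Medians were 0.11 in BG and 0.02 in Ctx. The count in BG was 0 without either BG -/- array or BG +/- replicate 2, and 1 without BG +/- replicate 3 or either Ctx -/- array, and 0.191% to 3.28% of all genes passed in these fits.

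**Figure D5:**
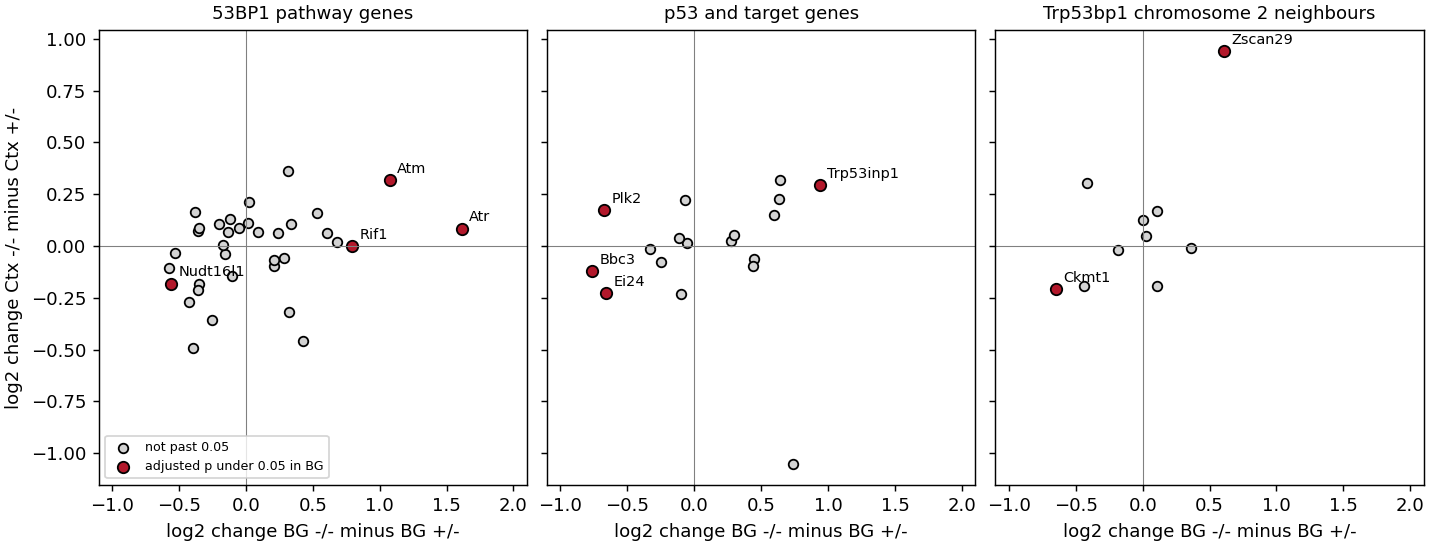
Log2 change in Ctx against that in BG, -/- minus +/-, for the 35 pathway genes, the 18 p53 genes and the 10 chromosome 2 neighbours, each gene by its brightest probe set. Filled red points passed adjusted p under 0.05 in BG (4, 4 and 2 genes), and none passed in Ctx.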

How the data were processed

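The deposited values are intensity values on a linear scale, 1 summarised signal per probe set, for 8 arrays of 4 groups taken from the sample titles. The 2% trimmed mean was 150.001 on every array, so the authors had scaled them to a common level; the software is not given in the sources used here, and no detection calls were used. Gene symbols came from the platform annotation, and chromosomes, neighbours and promoters from RefSeq tables of GRCm38.p6. After leaving out 64 controls, signals were analysed as log2(signal + 16), and the lowest 30% of probe sets by mean were left out, which kept 31526. A model of 4 group means over all 8 arrays was fitted with limma 3.58.1 in R 4.3.3 (lmFit, eBayes), with Benjamini-Hochberg adjustment over the probe sets kept and a threshold of 0.05. The fit had 4 residual and 2.76 prior degrees of freedom. It was also run on simulated data with independent noise, a run that does not cover effects shared by the probe sets of an array. A listed gene is its brightest single-gene probe set. Genes were named by rule: all members, the 5 genes closest in pattern to each of the 2 most variable members, the neighbours, list genes past the threshold, and the 3 widest spreads in BG. Other list genes and the genes with a like split were picked after their values were seen. The members and lists were chosen with earlier results of these data known. With 2 arrays a group, their number limits the precision.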

Additional observations from a re-analysis of the deposited data

How the results depend on the processing

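The added constant sets the size of the Trp53bp1 spread: it was 6.45 in BG and 5.16 in Ctx with log2(signal + 1), and 1.66 and 1.85 with log2(signal + 64). It was 2.71 in BG with 1446100_at set aside. Leaving out each replicate gave 2.83 to 3.73 in BG and 3.07 to 3.38 in Ctx. In every setting with a spread over all 6 probe sets, Trp53bp1 ranked at 1 of 244 genes. This rank describes how the gene was chosen and lends no support. The 1442316_x_at and 1457812_at changes were negative in all 13 alternatives in both regions; 1426956_a_at changed sign in 3 in BG and 1446100_at in 2 in Ctx. With log2(signal + 64), 8 pathway genes (4 higher), 7 p53 genes and, in Ctx, 1 neighbour passed, as did 14.8% of all genes in BG and 0.411% in Ctx, beside 7.82% and 0.205% with log2(signal + 16). Of p53 genes 1 passed in BG with no filter on low values, where 2.92% of all genes passed. Of the neighbours in BG, 1 passed with arrays centred on their median (5.08% of all genes) and 1 with quantile normalization (8.78% of all genes). With the mean of a gene's probe sets 1 neighbour passed, as higher (8.7% of all genes), and with no filter 0 (2.92% of all genes). Leaving out each replicate gave 0 to 4 pathway genes, 0 to 5 p53 genes and 0 to 2 neighbours in BG, and 0 of each list in Ctx. The share of all genes that passed changed in these fits too, as given above. The labels pair the samples by number only, and deviations of same-numbered arrays correlated at 0.005 in BG and -0.0067 in Ctx. With the replicate block 1 p53 gene passed in BG and no pathway gene passed as lower, where 4.38% of all genes passed. Centring arrays moved the median change of all probe sets to -0.09 in BG and 0.05 in Ctx. Signals below 16 limit what can be read of the low -/- values.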
